A study of Mus musculus with 5 samples.

Results

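The nuclear receptor genes Nr1d1, Nr1d2, Rora and Rorb were examined for peaks in a ChIP-seq map of Nr1d1 (REV-ERBα) binding in mouse Th1 cells. The 4 genes were taken by name from the nearest-gene column of the 3 deposited HOMER annotation tables, and 28 of the 51163 rows of those tables name 1 of them. These rows are 10 peaks of the Nr1d1 ChIP, 5 of which recur in the list of ChIP peaks that overlap no IgG peak (called ChIP-specific here), and 13 peaks of the IgG mock. Rorb and Rora received all of the ChIP peaks, Nr1d1 received an IgG peak only, and Nr1d2 received no peak.

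The series holds 5 libraries from Th1 cells of wild-type C57BL/6 mice: 3 Nr1d1 ChIP libraries, 1 IgG mock pull-down and 1 input DNA library. Naive CD4 T cells from secondary lymphoid organs of mice aged 4 to 6 weeks were activated with anti-CD3 and anti-CD28. They were driven to the Th1 state in culture with IL-12, IFNγ and anti-IL-4, and harvested after 3 to 4 days. The label of all 5 libraries names the Nr1d1 antibody, so the groups follow the sample titles. The peak lists cover each antibody as a whole: the ChIP list holds 19586 peaks and the IgG list 17111, each called against the 1 input, and 14471 ChIP peaks are ChIP-specific. They give no value per library, no read depth and no expression. No replicate spread or test between antibodies could therefore be computed for a gene, and the Th1 identity of the cells could not be checked.

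REV-ERBα (Nr1d1) and REV-ERBβ (Nr1d2) are heme-binding nuclear receptors that repress transcription by recruiting NCoR and HDAC3. RORα (Rora) and RORβ (Rorb) recognise the same response element, the AGGTCA core with an AT-rich flank, and activate from it. The opposed action of both families on shared elements forms the stabilising loop of the circadian clock, and the REV-ERB genes are known as targets of their own products. In lymphoid cells RORα is best known for its part in the Th17 programme of T cells and in innate lymphoid cells, while RORβ is best known from the retina and brain.

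The promoter windows of 3 start sites are printed to show the letters of the places where binding of a clock receptor to its own family would be looked for. They run from 250 bases before to 50 after the start and come from the RefSeq promoter table (GRCm38.p6, the build of the peak lists). That table matched all 4 genes, with 5 windows in all. Nr1d1 is shown as the gene of the receptor pulled down, at chr11:98775328-98775627, minus strand. Nr1d2 is shown because its window holds the AGGTCA core, at chr14:18239057-18239356, minus strand. The internal start of Rorb is shown because it is the promoter window nearest to a ChIP-specific peak, at chr19:19001068-19001367, minus strand. Capitals mark the AGGTCA core, and sequences without capitals hold no exact match to the motifs searched.
Nr1d1: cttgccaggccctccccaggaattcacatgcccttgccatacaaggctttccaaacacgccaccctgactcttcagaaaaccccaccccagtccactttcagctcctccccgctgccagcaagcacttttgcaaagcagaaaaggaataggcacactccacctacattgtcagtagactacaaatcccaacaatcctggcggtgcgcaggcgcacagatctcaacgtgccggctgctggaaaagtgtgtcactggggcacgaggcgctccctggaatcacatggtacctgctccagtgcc
Nr1d2: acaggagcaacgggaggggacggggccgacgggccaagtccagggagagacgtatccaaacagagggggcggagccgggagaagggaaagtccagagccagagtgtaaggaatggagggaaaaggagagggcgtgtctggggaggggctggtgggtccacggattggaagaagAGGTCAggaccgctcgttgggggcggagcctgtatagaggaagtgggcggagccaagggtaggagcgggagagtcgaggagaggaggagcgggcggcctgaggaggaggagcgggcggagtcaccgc
Rorb, internal start: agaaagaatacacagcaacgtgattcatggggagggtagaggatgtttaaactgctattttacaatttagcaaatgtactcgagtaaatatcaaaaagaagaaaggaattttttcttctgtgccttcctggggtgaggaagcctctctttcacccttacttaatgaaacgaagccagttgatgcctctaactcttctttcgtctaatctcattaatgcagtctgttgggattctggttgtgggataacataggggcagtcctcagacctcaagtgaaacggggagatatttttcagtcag

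None of the 5 windows overlapped a ChIP or IgG peak. The AGGTCA core was in 1 of the 5, that of Nr1d2, at -77 to -72 relative to the first transcribed base and in the direction of the gene. Over the 32851 windows of the table, 16.3% held the core on either strand. The longer forms TAGGTCA (2.61% of all windows) and AAAGGTCA (1.51%), both of which contain the core, were in 0 of the 5. The RevDR2 arrangement, a pair of cores in the same direction with any 2 bases between them, occurred in 3 of all windows and in none of these. The E-box CACGTG (7.15% of all windows) and the D-box TTATGTAA (0.938%) were also in 0 of the 5. These matches describe letters in 300 bp windows, searched on both strands, and are not evidence of binding. Only exact letters were searched, so a window without a match may still hold a variant of these sites. The windows lay at different distances from peaks: 786903 bp from the nearest ChIP peak for Nr1d1, 121657 bp for Nr1d2, 21915 bp for Rora, 11097 bp for the upstream start of Rorb and 6068 bp for its internal start.

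**Figure D1:**
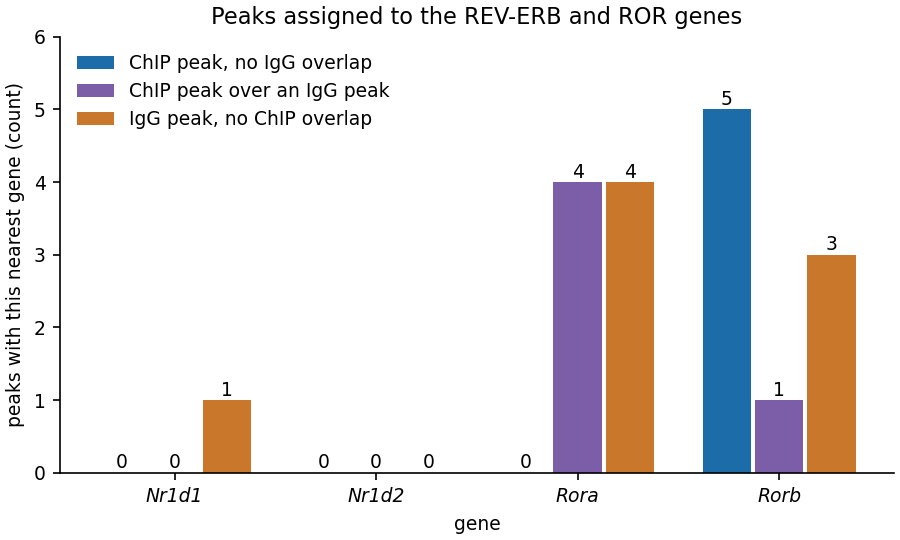
Number of peaks (vertical axis) whose nearest gene is each of the 4 receptor genes (horizontal axis), for ChIP peaks without IgG overlap, ChIP peaks over an IgG peak, and IgG peaks without ChIP overlap. Rorb has 5, 1 and 3 peaks of these kinds, Rora 0, 4 and 4, Nr1d1 0, 0 and 1, and Nr1d2 none.

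By nearest gene, 1 of the 4 receptors had a ChIP-specific peak, 2 had a ChIP peak of any kind and 3 had an IgG peak. Over 21883 RefSeq protein-coding genes, 17.5% had a ChIP-specific peak by this rule, 22% a ChIP peak and 17% an IgG peak. A set of 4 genes is too small for these shares to be set apart from that background, and the genes differ widely in size. Nr1d1 spans 7.45 kb, Nr1d2 35.1 kb, Rorb 181 kb and Rora 735 kb, and larger genes held peaks more often. A ChIP peak lay in the body of 7.20% of genes of 5 to 10 kb and of 94.0% of genes of 500 to 1000 kb. Each gene is therefore set below beside genes of similar length, in length windows chosen after the values had been seen. Of the 10 ChIP peaks, 9 were intronic and 1 was intergenic. None was at a promoter, the class of 6.37% of all ChIP peaks. Their distance to the assigned start ran from 6150 to 64624 bp, with a median of 32503 bp, against a median of 29451 bp over all ChIP peaks. The 13 IgG peaks were 9 intronic, 3 intergenic and 1 at a transcription termination site (TTS).

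The gene of the receptor that was pulled down, Nr1d1 (chromosome 11, 98767932 to 98775377, minus strand), had no ChIP peak. The closest ChIP peak on the chromosome lay 779507 bp away, at Plxdc1 (97988301 to 97988424, FDR 0.0368), and the closest ChIP-specific peak 1088348 bp away. An IgG peak did lie inside the gene, at 98769501 to 98770024. Its length was 525 bp, its FDR was printed as 0 and its class was TTS. Its length placed it among the 80 IgG peaks of 525 bp or more, 0.468% of that list. An FDR printed as 0 was less rare, with 2934 IgG peaks (17.1%), of which 74.9% overlapped a ChIP peak, while the peak in Nr1d1 did not. Of 290 IgG peaks annotated as TTS, 50 had an FDR printed as 0.

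The neighbourhood of that IgG peak is compact. Thra, the thyroid hormone receptor α gene, is transcribed towards Nr1d1, and the RefSeq bodies of both genes overlap by 1075 bp at their 3' ends. The peak began 495 bp past the end of Thra (98769006) and its centre lay 5615 bp from the 5' end of Nr1d1. HOMER measured its distance of 664 bp from ENSMUST00000139220, a transcript whose start, computed from that distance, is at 98770426 inside the gene. The deposited class does not say whose termination site was meant. In the 2890 protein-coding genes with bodies of 5 to 10 kb, 5.67% held an IgG peak, 7.20% a ChIP peak and 4.74% a ChIP-specific peak.

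Nr1d2, the paralogue that acts beside Nr1d1 in the clock (chromosome 14, 18204056 to 18239106, minus strand), had neither a ChIP nor an IgG peak, by nearest gene or within its body. The closest ChIP peak was ChIP-specific and intergenic and lay 86656 bp away (18117151 to 18117399, FDR 0.00887), assigned to the pseudogene Gm6773. The closest IgG peak lay 140344 bp away and was assigned to Ube2e1. Among 5094 genes with bodies of 20 to 50 kb, 84.2% held no ChIP peak and 89.2% no IgG peak, so Nr1d2 was like most genes of its size. Peak lists hold sites past a threshold only, so a gene without a peak is not shown to be unbound.

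**Figure D2:**
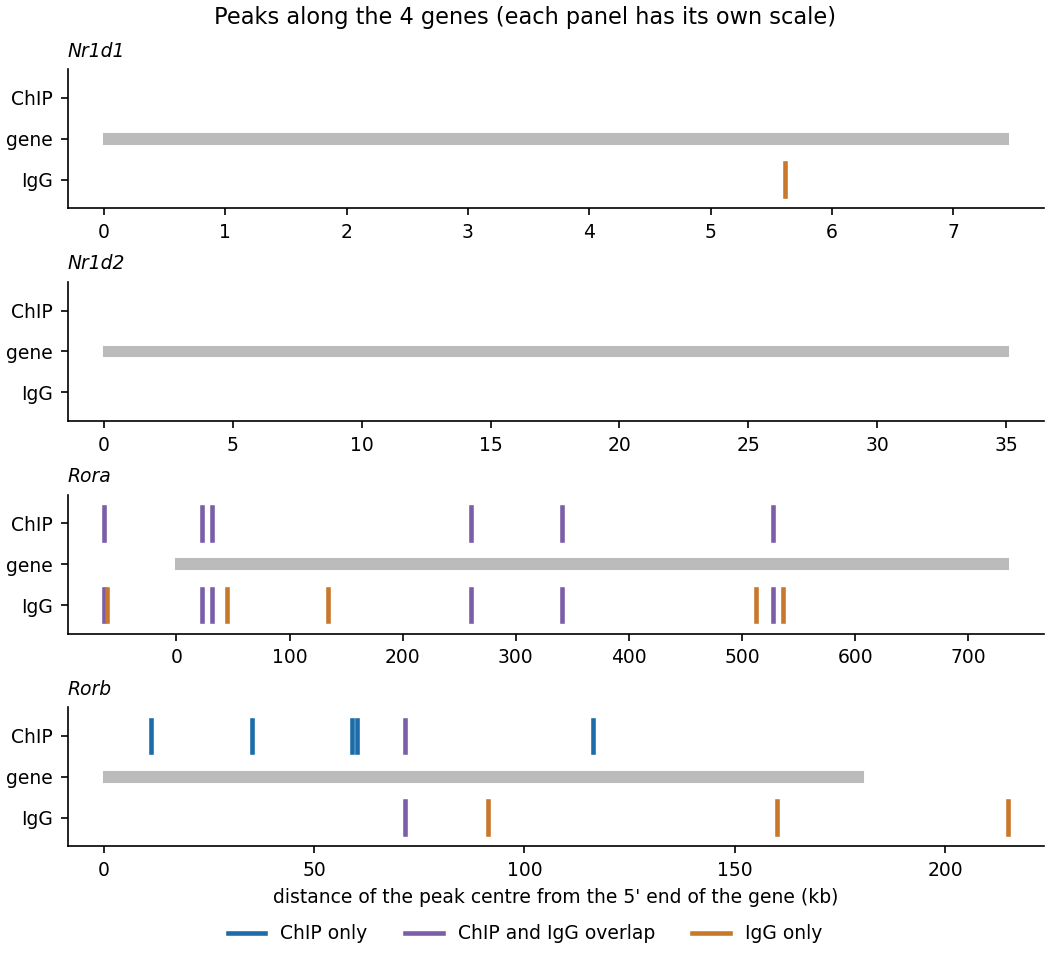
Centres of ChIP peaks (upper lane) and IgG peaks (lower lane) along each gene (grey bar), as distance from the 5' end of the gene in kb, with a separate scale for each gene. In Rora every ChIP peak coincides with an IgG peak, whereas in Rorb 5 of 6 ChIP peaks stand apart from the IgG peaks.

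Rorb carried the 5 ChIP-specific peaks found at these receptors, all of them intronic. The gene (chromosome 19, 18930609 to 19111196, minus strand) had 6 ChIP peaks and 4 IgG peaks by nearest gene, with 1 site in common. The share of its ChIP peaks that was ChIP-specific was 83.3% (exact Clopper-Pearson 95% interval 35.9 to 99.6, for the counting of peaks only), against 73.9% of all ChIP peaks. The share over the whole list lies inside that interval, which was not used as a test because peaks of 1 gene are not replicates. The number of sites was the less usual value: 221 of the 21883 protein-coding genes (1.01%) were nearest to 5 or more ChIP-specific peaks.

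The ChIP-specific peak closest to the upstream start of Rorb lay 11321 bp into the gene, at 19099701 to 19100049. It was the longest of the 5, at 350 bp, and had the lowest FDR, 0.00880. A length of 350 bp or more was found in 3.99% of ChIP-specific peaks, and an FDR as low in 18.1%. The next peak was 35196 bp from the same start (19075951 to 19076049, 100 bp, FDR 0.0133).

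A pair of ChIP-specific peaks followed near the middle of the gene, separated by 1076 bp. Of these, the peak at 19052126 to 19052374 was 250 bp long with an FDR of 0.00928. The other, at 19050926 to 19051049, was 125 bp long with an FDR of 0.0419, and 94.2% of ChIP-specific peaks had an FDR as low or lower. The last ChIP-specific peak (18994901 to 18994999, 100 bp, FDR 0.0263) lay 6150 bp downstream of the internal start of Rorb, and was the ChIP peak closest to a start among those at the 4 genes. HOMER referred 4 of the 6 ChIP peaks to transcripts with computed starts at 19001100 or 19001117, the internal promoter printed above, and 2 to the start at 19111196.

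By FDR the ChIP-specific peaks of Rorb were ordinary for their list, but by median length they were shorter. Their median FDR was 0.0133, against 0.0146 for all ChIP-specific peaks, and their median length 125 bp, against 200 bp. Those of 100 bp had the shortest length in the list. None had an FDR printed as 0, which 1.12% of ChIP-specific peaks had. All were well separated from IgG peaks, by 11226 to 60001 bp. Under an FDR of 0.01, 2 of the 5 were left, and at 200 bp or longer also 2.

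The IgG peaks of Rorb took up other positions. Of the 4, the strongest lay in an intron towards the 3' end (18951001 to 18951249, 250 bp, FDR printed as 0), 43651 bp from the nearest ChIP peak. A further intronic peak lay at 19019801 to 19020024 (FDR 0.0269), and an intergenic one beyond the 3' end at 18896126 to 18896474 (FDR 0.0364). The site common to both antibodies was at 19039426 to 19039674 in the ChIP list (FDR 0.0102) and at 19039426 to 19039699 in the IgG list (FDR 0.000934). It was the 1 site among those assigned to these genes at which the IgG peak had the lower FDR. Each FDR was computed within its own list, so this order does not measure relative binding.

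Per length, the body of Rorb held 27.7 ChIP-specific peaks per Mb (exact Poisson 95% interval 8.99 to 64.6), against 5.36 per Mb over the bodies of all protein-coding genes. IgG peaks were at 16.6 per Mb (3.43 to 48.5), against 6.02. Among 1872 genes of 100 to 300 kb, 36 (1.92%) held as many ChIP-specific peaks as Rorb, and 196 (10.5%) held as many IgG peaks as its 3. The median gene of this length held 0 of either. The intervals cover the counting of peaks only. Rorb was examined with these counts known, so its place in the upper tail is a description and was not tested.

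**Figure D3:**
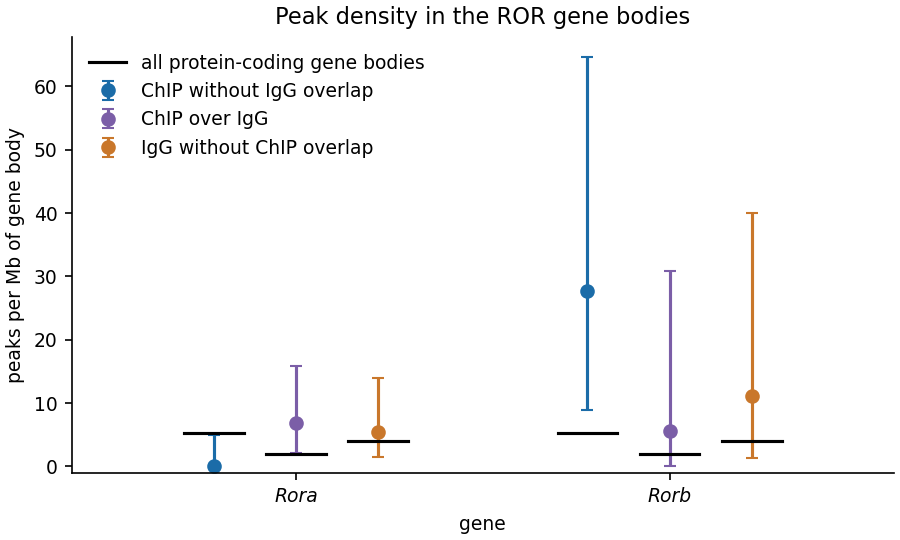
Peaks per Mb of gene body (vertical axis) for Rora and Rorb, as points with exact Poisson 95% intervals, beside the density over all protein-coding gene bodies (black lines). For ChIP peaks without IgG overlap Rorb stands at 27.7 per Mb and Rora at 0, with the line at 5.36.

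Rora showed the reverse arrangement: 4 ChIP peaks, each over an IgG peak, and 0 ChIP-specific peaks. The gene (chromosome 9, 68653404 to 69388246, plus strand) is among the longest in the genome, with 0.516% of protein-coding genes at least as long, and 8 IgG peaks were assigned to it. The share of its ChIP peaks that was ChIP-specific was 0 of 4 (exact Clopper-Pearson 95% interval 0 to 60.2%), against 73.9% of all ChIP peaks. Rora was examined with this count known, and peaks of 1 gene are not replicates. The interval is therefore a description and was not used as a test.

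The first of the common sites was intergenic, 64624 bp upstream of the Rora start. There the ChIP peak at 68588976 to 68589349 (375 bp, FDR printed as 0) covered the IgG peak at 68589001 to 68589349 (FDR 0.000281). In the first part of the gene, the peaks of both lists had the same ends, 68675751 to 68676099, and an FDR printed as 0 in each. A weaker site followed at 68684951 to 68685274 in the ChIP list (FDR 0.00368) and 68685001 to 68685199 in the IgG list (FDR 0.0164).

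The last common site lay far into the gene, 14491 bp upstream of a start at 69195541, which belongs to the shorter transcript ENSMUST00000132355. The ChIP peak was at 69180876 to 69181224 (350 bp, FDR 0.00104) and the IgG peak at 69180926 to 69181199 (275 bp, FDR 0.00200). Its overlap was 78.5% of the ChIP peak, and over the 5 common sites of Rora and Rorb the overlap was at least 61.4%. At 3 of these sites the ChIP peak had the lower FDR, at 1 the IgG peak, and at 1 both were printed as 0. All 4 ChIP peaks of Rora lay among the 12.5% of ChIP peaks with the lowest FDR, and were 325 to 375 bp long, above the median of 200 bp. Such values are usual for ChIP peaks over IgG peaks, whose median length was 300 bp and of which 31.3% had an FDR printed as 0.

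The other 4 IgG peaks of Rora had no ChIP peak over them. An intergenic one at 68592126 to 68592374 (FDR 0.0112) lay 2776 bp from the upstream ChIP peak. The intronic ones were at 68697676 to 68697824 (FDR 0.0248), 69165301 to 69165449 (FDR 0.00328) and 69189576 to 69189674 (FDR 0.0266), between 8351 and 15426 bp from a ChIP peak. The common site near the internal start thus had an IgG peak on each side.

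Within the Rora body lay further peaks that HOMER assigned to AC127262.1, a transcript with a computed start at 68835341 inside the gene. They were 2 ChIP peaks and 3 IgG peaks. Both ChIP peaks, at 68913851 to 68914199 (FDR printed as 0) and 68994051 to 68994149 (FDR 0.0361), again overlapped IgG peaks. With these, the body held 5 ChIP peaks, all of them over IgG peaks, and 9 IgG peaks. The nearest ChIP-specific peak was 79304 bp outside the gene (68574001 to 68574099, FDR 0.0168).

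Set beside genes of its length, Rora had fewer ChIP-specific peaks than the median gene and about as many ChIP peaks. Of 167 genes with bodies of 500 to 1000 kb, 153 held a ChIP-specific peak, with a median of 4 and a range up to 17. Rora was 1 of the 14 that held none, and 1 of 4 that held none although they had a ChIP peak. The others of those 4 were Nav3, Ryr2 and Nfia. The median number of ChIP peaks at this length was 6, near the 5 of Rora, and the median number of IgG peaks was 5, below its 9. By nearest gene, 525 protein-coding genes had 4 or more ChIP peaks, and in 2 of them (0.381%), Rora and Nav3, none was ChIP-specific. These criteria were chosen after the values of Rora had been seen, and the difference between Rora and Rorb was not tested, since peaks of 1 gene are not replicates.

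**Figure D4:**
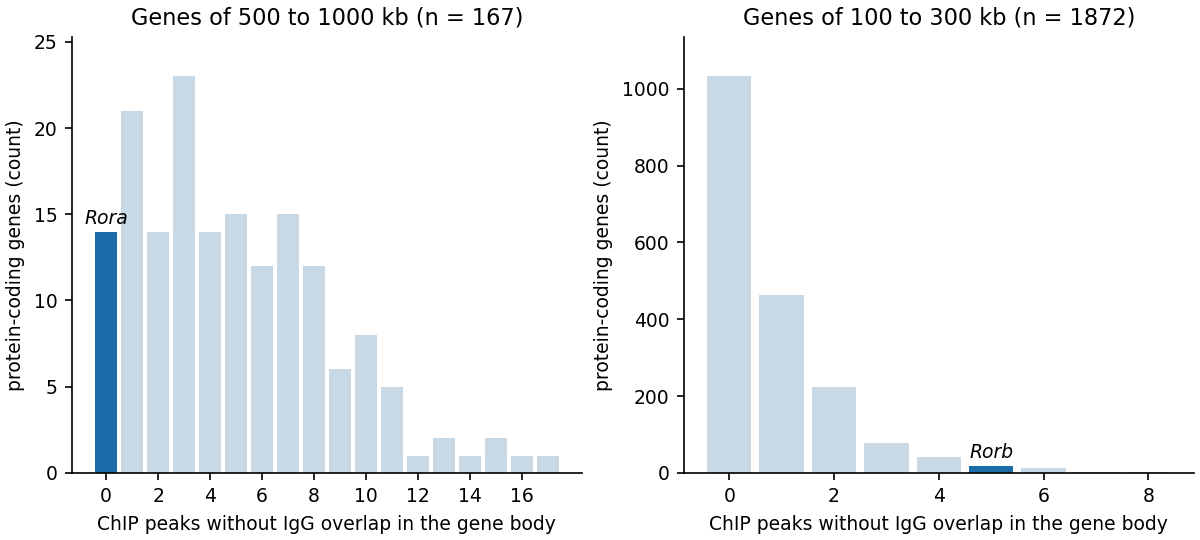
Number of protein-coding genes (vertical axis) by the ChIP peaks without IgG overlap in their body (horizontal axis), for genes of 500 to 1000 kb (left) and 100 to 300 kb (right). The dark bars are the bins that hold Rora, with 0 such peaks, and Rorb, with 5.

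The genes whose counts of ChIP-specific, common and IgG peaks were most like those of each ROR gene were found by the summed absolute difference of the 3 counts, with ties ordered by gene length. For Rora (0, 4 and 8) these were Nav3 (0, 4 and 9), Cdk14 (1, 4 and 8) and Fam189a2 (1, 3 and 8). For Rorb (5, 1 and 4) the genes Sncaip, Adgra3 and Tex29 had the same counts, although Tex29 spans only 15.3 kb. The measure rests on 3 counts per gene from lists that share an input.

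Among 21 other genes of REV-ERB and ROR action, 6 (28.6%) had a ChIP-specific peak by nearest gene and 6 (28.6%) had an IgG peak, while 12 had neither a ChIP nor an IgG peak. The shares over all protein-coding genes were 17.5% and 17%, and the list was put together with earlier results known. These shares were not matched for gene length, and the listed gene bodies ran from 3.08 kb (Gps2) to 662 kb (Ppargc1a). Of 5 corepressor genes, 1 had a ChIP-specific peak. This was Tbl1xr1, a subunit of the NCoR complex, with an intronic peak 560 bp from its start (chromosome 3, 22077151 to 22077274, FDR 0.0190). Its promoter peak overlapped an IgG peak (22076076 to 22076224), which lay within 1 kb of the intronic peak. Ncor1 and Hdac3, the partners through which REV-ERBα represses, had no peak.

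Of 4 coactivator genes, 2 had a ChIP-specific peak. Ppargc1a, the gene of the ROR coactivator PGC-1α, had 3 ChIP-specific and 5 IgG peaks, and Ncoa1 had an intergenic peak 35368 bp upstream (FDR 0.0251). The promoter peak of Ncoa3 was common to both antibodies. Of 10 clock genes, Cry1 and Bhlhe40 had a ChIP-specific peak. That of Cry1 was intergenic, 6021 bp upstream of its start, and that of Bhlhe40 was of the promoter class, 792 bp upstream. Neither these nor the Ncoa1 peak lay in the gene body. Hlf had a ChIP peak over an IgG peak, and Arntl, the best known target of REV-ERB and ROR, an IgG peak only. Thra, which adjoins Nr1d1, had no peak, and its paralogue Thrb, which lies beside the Nr1d2 region on chromosome 14, had 3 ChIP-specific and 8 IgG peaks.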

How the data were processed

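ChIP-seq was done on 5 libraries (3 Nr1d1 ChIP, 1 IgG mock, 1 input). Per the submitters' processing notes, BWA and HOMER were used with the mm10 build, and no versions are given. Which caller made the peaks, and how libraries were pooled, is not given in the sources used here. Per the file headers, the authors deposited a q-value of each peak as an FDR to 6 decimals and a peak length, a multiple of 25 bp. The score in the deposited annotation tables equals the peak length in all 51163 rows. Lists and annotation were joined by position, with starts counted from 1 as in the annotation.

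The 14471 peaks of the list without overlap were checked to be the ChIP peaks with no IgG overlap of 1 bp. Gene bodies come from RefSeq (GRCm38.p6), and symbols matched for 78.1% of ChIP and 76.8% of IgG peaks. Peaks were also counted in gene bodies. Densities have exact Poisson and shares exact Clopper-Pearson intervals at 95%, which cover counting only. As lists hold no replicates, no test was run. The receptor genes are all named; others are those assigned to peaks inside them, their neighbours, the 3 genes with the most similar counts, and a list of 21 pathway genes, from which some genes are left out and not reported here. Members, lists and length windows were chosen with earlier results of these data known. Alternatives changed the gene assignment, FDR, length and overlap rule. Counting was tested on made-up data with known answers. Python 3.11.15, numpy 2.4.6, pandas 2.3.3, scipy 1.17.1 and matplotlib 3.10.9 were used. Peak sequences were not used here.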

Additional observations from a re-analysis of the deposited data

How the results depend on the processing

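The totals over the 4 genes depended mainly on the FDR and on peak length. With an FDR under 0.01, ChIP peaks fell from 10 to 6, ChIP-specific peaks from 5 to 2 and IgG peaks from 13 to 7. With peaks of 200 bp or longer, ChIP-specific peaks numbered 2. These settings keep fewer peaks by construction. Counting peaks in gene bodies, with or without 5 kb around them, requiring no IgG peak within 1 kb, or counting an overlap only at 50% of the ChIP peak left each of these totals within 1.5 times its value. The number of genes with a ChIP-specific peak (1) and with an IgG peak (3) was the same under every alternative run. Stricter settings of FDR, length or distance to an IgG peak could only have lowered these numbers. The density of ChIP-specific peaks over the 4 gene bodies fell with their number, from 5.22 to 2.09 per Mb, both with an FDR under 0.01 and at 200 bp or longer. The IgG density of 13.6 per Mb was 9.40 to 13.0 under its alternatives. Over all protein-coding gene bodies, the densities as deposited were 5.36 ChIP-specific and 6.02 IgG peaks per Mb. The ChIP-specific density over the 4 genes was thus near that of all genes, and the IgG density was higher. Rora had 0 ChIP-specific peaks under all 6 alternatives. The FDR, length and 1 kb settings only remove peaks, so a count of 0 was fixed under them. IgG peaks overlapped at least 61.4% of each ChIP peak of Rora, so the 50% rule could not change the count either. No replicate could be left out, since the lists pool the libraries, and the unknown read depth limits what a missing peak can show.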

Other observations

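Thrb, the thyroid hormone receptor β gene which shares its region of chromosome 14 with Nr1d2, had more IgG than ChIP peaks. It had 8 IgG peaks, among them a pair with an FDR printed as 0 in an intron (17731001 to 17731324 and 17731451 to 17731774) and a promoter peak 10 bp upstream of a start (17660876 to 17661024, FDR 0.00155). None of them overlapped a ChIP peak. Its 3 ChIP-specific peaks were all intergenic, between 181773 and 467885 bp upstream. The body of Thrb held 1 ChIP-specific and 4 IgG peaks, and that ChIP-specific peak was assigned to another gene.

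Assignment by nearest start and by gene body gave different counts in both directions for genes of the pathway list. By nearest start 6 of the 21 genes had a ChIP-specific peak, by gene body 5, and 3 had one by both rules. Ppargc1a had 3 ChIP-specific peaks by nearest gene and 7 in its body of 662 kb. Tbl1x and Clock had none by nearest gene and 1 each in the body. Cry1, Bhlhe40 and Ncoa1 had 1 each by nearest gene and 0 in the body, where Ncoa1 held a ChIP peak over an IgG peak, and Thrb went from 3 to 1. For the 4 receptor genes the ChIP-specific counts were the same by both rules.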
